A study of Bos taurus with 21 samples.

Results

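Globin, erythroid and myoglobin transcripts were followed in the muscle of cattle foetuses of 2 breeds from mid-gestation to near birth. The genes are HBB, which encodes the adult beta-globin chain, HBG, which encodes the foetal beta-like chain, ALAS2, the erythroid enzyme that starts haem synthesis, and MB, which encodes myoglobin. Their probes were every non-control probe whose transcript maps to 1 of these 4 genes in the cattle annotation. There were 7 of them (1 for HBB, 3 for HBG, 2 for MB and 1 for ALAS2) among 43653 probes, and the 4 genes were 4 of the 12538 that the probes name. The array carries no gene-length scale, so levels are compared between samples and never between genes. Most comparisons use 1 probe at a time.

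The breeds were Blonde d'Aquitaine (BA), a muscular breed in which the study describes a myostatin (MSTN) mutation, and Charolais (CH), the comparison breed. The study states that not all BA animals carry the mutation and that the BA foetuses were not genotyped for it. Each foetus came from artificial insemination within its own breed, was untreated, and gave 1 array. The groups held 3 BA and 2 CH foetuses at 110 days post-conception (dpc), 2 BA and 3 CH at 180 dpc, 3 BA and 3 CH at 210 dpc, and 2 BA and 3 CH at 260 dpc, which is close to birth. Of the 21 foetuses, 8 were male and 13 female, and each breed came from 2 sires. Both BA foetuses at 180 dpc were female by 1 sire, as were both BA foetuses at 260 dpc. Both CH foetuses at 110 dpc were female by 2 sires, and the 3 CH foetuses at 210 dpc were by 1 sire. The labels name Longissimus thoracis as the tissue, while the study's methods name Semitendinosus. The 21 arrays came from 6 slides and 3 scan days, with 29017 to 34501 probes well above background on each. The muscle genes ACTA1, CKM, DES, MYL11 and TNNT3 were well above background on all 21 arrays.

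Haemoglobin is a tetramer of alpha-like and beta-like globin chains, each holding a haem. Red cells of mammals exchange their beta-like chains during development, from embryonic to foetal to adult forms, and in cattle the foetal chain comes from HBG and the adult chain from HBB. Both genes lie in the beta-globin cluster on chromosome 15, where the ARS-UCD2.0 annotation gives the order HBE1, HBE4, HBB, HBE2 and HBG. The alpha-like genes HBZ, HBM, HBA, HBA1 and HBQ1 lie together on chromosome 25. MB lies on chromosome 5 and ALAS2 on chromosome X. Haemoglobin is made by erythroid cells, so globin transcripts in a muscle sample are usually ascribed to blood held in its vessels. Myoglobin is made by the fibre itself, where it stores oxygen, and is richest in slow and oxidative fibres.

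All 7 probes were well above background on all 21 arrays and none was saturated. Values below are normalized log2 intensities, so that a difference of 1 is a doubling, and 0 lies near the middle of all probes on an array. A difference was called when the adjusted p (limma, Benjamini-Hochberg over all probes tested) was under 0.05. The tested set held 20132 probes with a mean above 0 in at least 7 of the 8 groups. The ALAS2 probe reached this in 6 groups and was therefore tested in the fit over all 43653 probes.

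HBB and HBG were highest at 110 and 180 dpc and lowest at 260 dpc in both breeds. In BA, HBB measured 4.62, 4.88 and 5.13 at 110 dpc, 6.30 and 5.58 at 180 dpc, 4.09, 4.91 and 3.82 at 210 dpc, and 2.92 and 2.01 at 260 dpc. In CH, HBB measured 4.76 and 5.10 at 110 dpc, 5.36, 5.16 and 5.10 at 180 dpc, 4.12, 4.67 and 4.75 at 210 dpc, and 1.86, 3.85 and 1.56 at 260 dpc. All 5 foetuses at 260 dpc lay below all 5 at 110 dpc, and the CH foetus at 3.85 stood well above the other two of its group. The 110 dpc samples overlapped those of 180 dpc by a narrow margin and those of 210 dpc more widely.

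HBG, the foetal chain, followed the same course on its brightest probe. In BA it measured 8.68, 8.66 and 9.33 at 110 dpc, 9.56 and 9.32 at 180 dpc, 8.47, 8.65 and 7.88 at 210 dpc, and 7.12 and 5.92 at 260 dpc. In CH it measured 9.30 and 9.13 at 110 dpc, 9.51, 9.21 and 9.03 at 180 dpc, 8.29, 8.96 and 9.08 at 210 dpc, and 5.62, 7.58 and 5.43 at 260 dpc. Every foetus at 260 dpc was below every younger foetus, and the foetus highest for HBB at 260 dpc was also the highest for HBG. The 110, 180 and 210 dpc samples overlapped.

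ALAS2, the rate-limiting erythroid step of haem synthesis, also ended low. In BA it measured 0.28, 0.49 and 1.16 at 110 dpc, 2.58 and 2.02 at 180 dpc, 0.63, 0.93 and -1.38 at 210 dpc, and -0.42 and -1.86 at 260 dpc. In CH it measured 1.61 and 1.32 at 110 dpc, 1.86, 1.59 and 1.34 at 180 dpc, 0.60, 1.02 and 1.00 at 210 dpc, and -1.91, -0.60 and -1.98 at 260 dpc. The 260 dpc foetuses were below all at 110 and 180 dpc, but 1 BA foetus at 210 dpc fell within their range.

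Myoglobin went the other way. In BA, MB measured 6.99, 7.41 and 7.04 at 110 dpc, 8.62 and 8.09 at 180 dpc, 8.08, 8.02 and 8.07 at 210 dpc, and 10.33 and 10.61 at 260 dpc. In CH, MB measured 7.70 and 7.36 at 110 dpc, 7.64, 7.63 and 6.46 at 180 dpc, 8.55, 8.40 and 7.76 at 210 dpc, and 9.94, 10.08 and 10.51 at 260 dpc. All 260 dpc foetuses were above all younger ones, and the 6 at 210 dpc were above the 5 at 110 dpc, whereas the 180 dpc foetuses spanned a wide range that overlapped both.

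**Figure D1:**
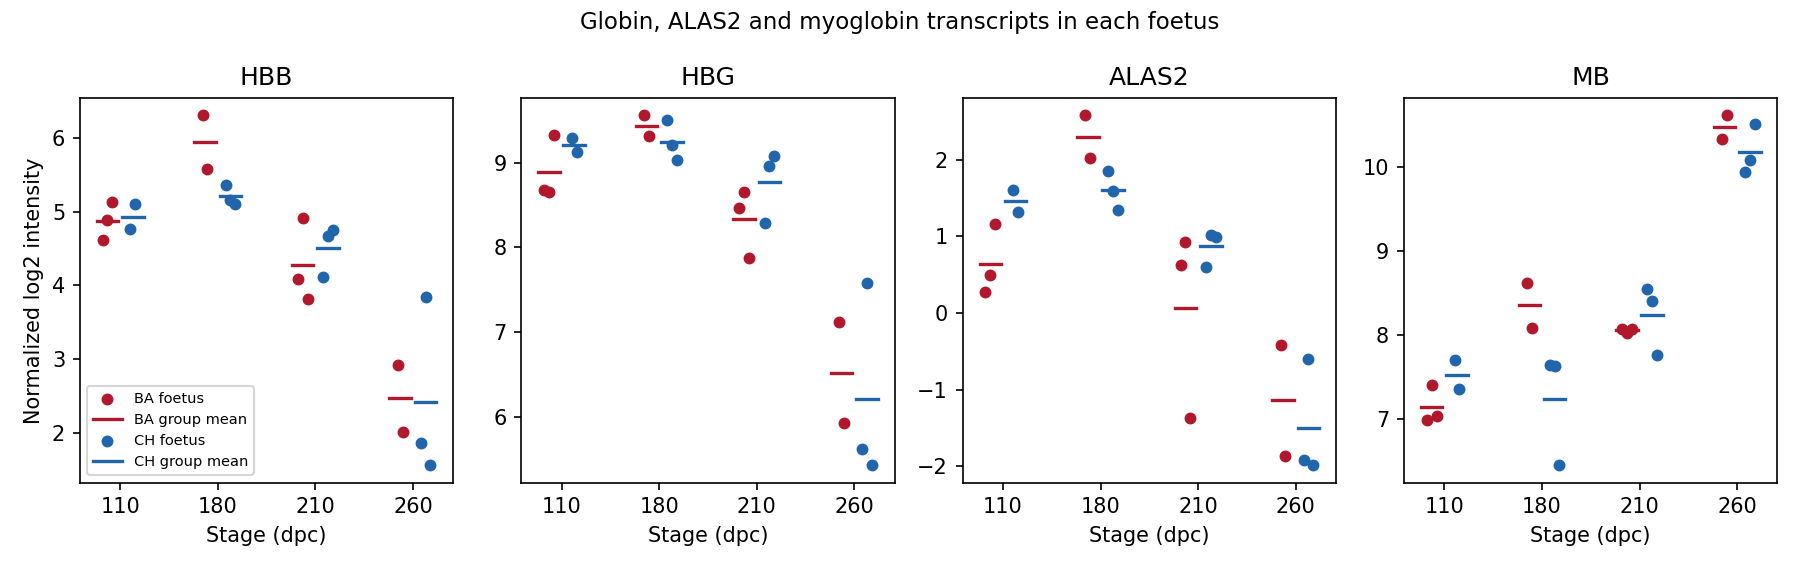
Normalized log2 intensity (vertical axis, scaled for each gene) of HBB, HBG, ALAS2 and MB on the brightest tested probe, or on the single probe, against stage in days post-conception, with 1 point per foetus (BA red, CH blue) and a bar at each group mean. HBB, HBG and ALAS2 end lowest at 260 dpc and MB ends highest, and 1 CH foetus at 260 dpc lies apart from its group at 3.85 for HBB and 7.58 for HBG.

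The change from 110 to 260 dpc was tested in each breed to see whether blood-borne and fibre-borne oxygen carriers altered over muscle development. HBB fell by 2.41 in BA (SE 0.50, 95% interval -3.46 to -1.36, limma adjusted p = 0.00062), a 5.32-fold drop. In CH it fell by 2.51 (SE 0.50, interval -3.56 to -1.46, limma adjusted p = 0.00044). HBG fell by 2.37 in BA (SE 0.49, limma adjusted p = 0.00064) and by 3.00 in CH (SE 0.49, limma adjusted p = 6.9e-05). ALAS2 fell by 1.78 in BA (SE 0.59, limma adjusted p = 0.030) and by 2.96 in CH (SE 0.59, limma adjusted p = 0.0011).

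MB rose by 3.32 in BA (SE 0.31, interval 2.67 to 3.97, limma adjusted p = 1.5e-07) and by 2.64 in CH (SE 0.31, interval 1.99 to 3.30, limma adjusted p = 1.9e-06). The other HBG probes differed by -2.25 and -2.49 in BA and by -3.13 and -3.20 in CH, and the second MB probe rose by 3.59 in BA and 2.57 in CH. All 7 probes were thus called in both breeds. Of all probes tested, 24.8% were lower and 27.6% higher at 260 dpc in BA, and 24.7% were lower and 27.5% higher in CH. Over all 43653 probes, where ALAS2 was tested, 17.5% were lower in BA and 16.4% in CH.

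A change between these stages was therefore common on the array. Averaged over the breeds, the drop of HBB was exceeded by 0.785% of the tested probes and that of HBG by 0.576%, while 99% of the probes lay below the rise of MB. The median change of all tested probes was 0.03 in each breed. In an exact two-sided permutation test of the breed-averaged change, with stages exchanged within breeds, each of the 4 genes gave p = 0.01, the smallest value that 100 arrangements allow.

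The scan day and the slide were partly shared between the stages. Within scan day 2, which held 3 foetuses of each stage, the difference between 260 and 110 dpc was -1.98 for HBB, -2.17 for HBG and -1.79 for ALAS2. On scan day 1 (2 foetuses at 260 dpc and 1 at 110 dpc) the differences were -3.16 for HBB, -3.36 for HBG and -3.21 for ALAS2. On the 1 slide that held both stages, with 1 foetus of each, the differences were smaller, at -0.77 for HBB, -1.10 for HBG and -0.88 for ALAS2. These foetuses were CH replicate 2 at 260 dpc, which had the high globin values, and BA replicate 1 at 110 dpc. The pair thus differed in breed as well as in stage, and the part of the slide cannot be told apart. The MB difference was 2.91 on scan day 1, 2.94 on scan day 2 and 3.1 on that slide. With slide as a block, the BA change of HBB was -1.83 (limma adjusted p = 0.052) and that of ALAS2 -1.70 (limma adjusted p = 0.17), so these 2 calls were lost.

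The ALAS2 call in BA was also lost with scan day as a block (-1.49, limma adjusted p = 0.093), in female foetuses alone (-1.63, limma adjusted p = 0.078), without the third BA foetus of 110 dpc (-1.52, limma adjusted p = 0.095) and without the second BA foetus of 260 dpc (-1.06, limma adjusted p = 0.36). Without CH replicate 2 at 260 dpc, the foetus with the high globin values, the CH change was -3.22 for HBB, -3.69 for HBG and -3.41 for ALAS2.

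**Figure D2:**
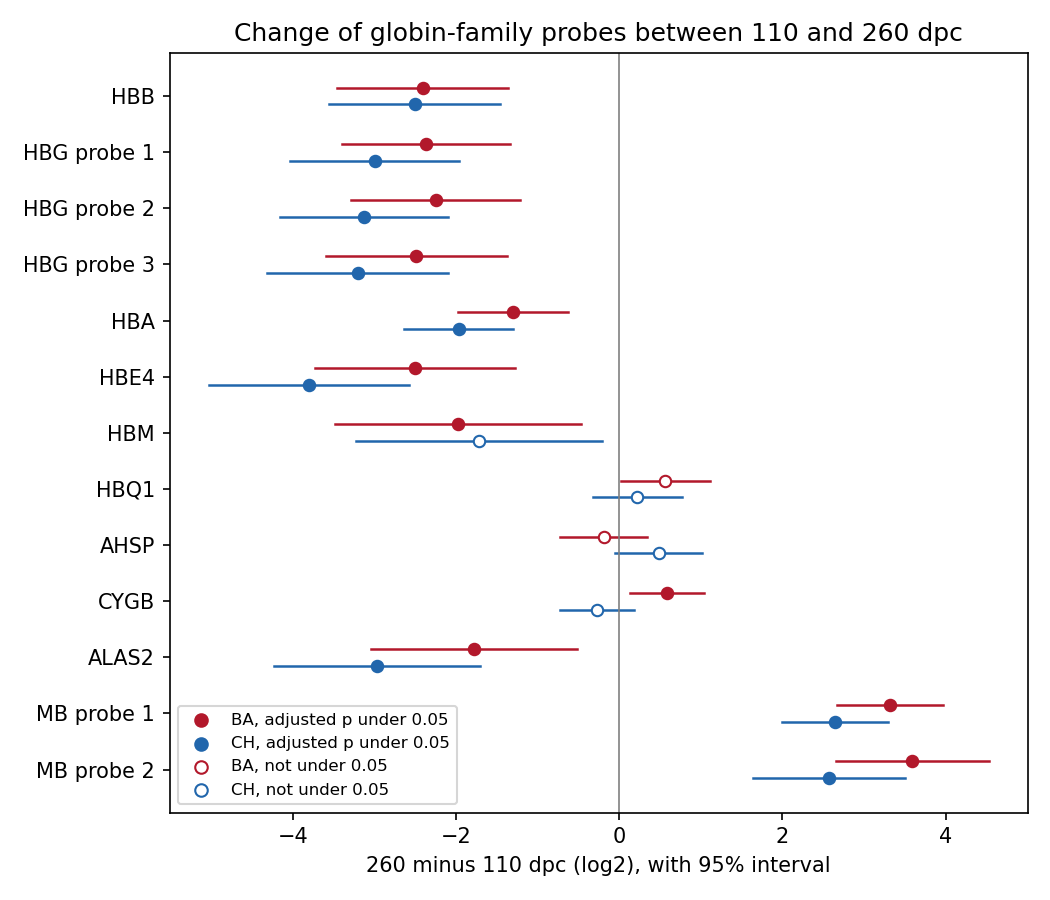
Difference between 260 and 110 dpc on the log2 scale (horizontal axis, with 95% interval) for each probe of HBG and MB and for 1 probe of each other gene, in BA (red) and CH (blue), with filled points for adjusted p under 0.05. HBE4, HBM and ALAS2 were tested in the fit over all probes, and the HBB, HBG, HBA, HBE4 and ALAS2 points lie left of 0 in both breeds while MB lies right of 0.

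With breeds averaged, the largest step of each of the 4 genes lay between 210 and 260 dpc. The stages are unevenly spaced, and the interval from 180 to 210 dpc is the shortest, so step sizes are not rates. Between 110 and 180 dpc, with breeds averaged, limma called none of the 4 genes (24% of all probes tested were called in either direction). The differences were 0.67 for HBB, 0.29 for HBG, 0.89 for ALAS2 and 0.46 for MB, of which those of ALAS2 and MB were under 0.05 before adjustment. Between 180 and 210 dpc HBB fell by 1.18 (SE 0.33, limma adjusted p = 0.034), where 4.33% of all probes tested were called lower. ALAS2 differed by -1.48 (limma adjusted p = 0.053), HBG by -0.79 (limma adjusted p = 0.15) and MB by 0.35 (limma adjusted p = 0.32) over the same interval.

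Between 210 and 260 dpc all 4 genes were called, against 19.9% of all probes tested lower and 24.8% higher. HBB fell by 1.95 (SE 0.33, limma adjusted p = 0.00017), HBG fell by 2.19 (SE 0.33, limma adjusted p = 5e-05) and ALAS2 fell by 1.79 (SE 0.40, limma adjusted p = 0.0037). MB rose by 2.17 (SE 0.21, limma adjusted p = 5.8e-07) over this interval. For ALAS2 the share of probes called lower over all probes was 12%. The HBB step from 180 to 210 dpc lost its call when any of 7 foetuses was left out, with limma adjusted p up to 0.15, and under 5 of 13 other settings. The ALAS2 step over that interval was called when any of 4 foetuses was left out, namely BA replicate 2 at 210 dpc, either BA replicate at 260 dpc or CH replicate 2 at 260 dpc (limma adjusted p down to 0.033). Without that CH foetus the HBG step was called too (limma adjusted p = 0.032), as was the rise of HBB from 110 to 180 dpc (limma adjusted p = 0.042). The rise of MB from 110 to 180 dpc was called without CH replicate 3 at 180 dpc (0.66, limma adjusted p = 0.011).

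Because red cells exchange the foetal chain for the adult one, the difference between HBG and HBB was followed within each array. The size of that difference mixes the brightness of both probes and only its change can be read. In BA the mean difference was 4.01 ± 0.22 at 110 dpc (SD, n = 3) and 4.06 ± 0.21 at 260 dpc (SD, n = 2). In CH it was 4.28 ± 0.36 at 110 dpc (SD, n = 2) and 3.79 ± 0.07 at 260 dpc (SD, n = 3). Averaged over breeds the change was -0.22 (exact two-sided permutation p = 0.22, adjusted p = 0.33 over 6 such differences), so an unequal fall of the foetal and adult chain transcripts was not detected. The other HBG probes gave -0.23 (exact permutation p = 0.29) and -0.39 (exact permutation p = 0.12). After normexp background correction the change was -0.76 (exact permutation p = 0.01), so this comparison depended on the processing. That setting also used median spot signals and quantile normalization, and which of these steps moved the value was not tested.

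The other globins were described beside the members. HBA, the alpha chain of both foetal and adult haemoglobin, fell by 1.30 in BA (SE 0.32, limma adjusted p = 0.0024) and by 1.97 in CH (SE 0.32, limma adjusted p = 6.1e-05). At 110 dpc it measured 8.60, 8.67 and 9.34 in BA and 9.59 and 9.40 in CH. At 260 dpc the highest of the 5 foetuses, CH replicate 2, was below the lowest at 110 dpc. HBA and HBG differed by 1.05 in their change (exact permutation p = 0.04, adjusted p = 0.24 over the 6 differences), the drop of HBA being the smaller, and HBA and HBB by 0.82 (exact permutation p = 0.08, adjusted p = 0.24).

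HBE4, an embryonic-type gene of the beta cluster, was under the filter on low values but well above background on 20 of 21 arrays. At 110 dpc it measured 1.31, 1.40 and 2.34 in BA and 2.32 and 2.34 in CH. At 260 dpc it measured -0.48 and -1.17 in BA and -1.52, -0.31 and -2.60 in CH, the last of these not well above background. In the fit over all probes BA differed by -2.51 (limma adjusted p = 0.0031). The CH difference was -3.81 (limma adjusted p = 9.3e-05).

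HBM, an alpha-like gene, differed by -1.98 in BA (limma adjusted p = 0.042) and by -1.72 in CH (limma adjusted p = 0.077) and was also under the filter. HBE1, another embryonic-type gene of the beta cluster, was well above background on 14 of 21 arrays and went the other way from HBE4. It was higher at 260 dpc by 1.17 in BA (limma adjusted p = 0.031) and differed by 0.84 in CH (limma adjusted p = 0.12). HBE2 was well above background on 0 of 21 arrays, and HBA1, HBZ and HBD had no probe here. HBQ1, a theta-like globin, and AHSP, the chaperone of free alpha globin, passed in neither breed. Their differences were 0.56 in BA and 0.22 in CH for HBQ1 and -0.19 in BA and 0.48 in CH for AHSP. Cytoglobin (CYGB), a globin of connective tissue cells, differed by 0.59 in BA (limma adjusted p = 0.030) and by -0.27 in CH (limma adjusted p = 0.31). The BA call was not kept in the fit over all probes (limma adjusted p = 0.061), and the second CYGB probe differed by 0.21 in BA (limma adjusted p = 0.58). Globin genes are alike in sequence and probe sequences were not used here, so signal shared between paralogous globins was not tested.

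Foetuses that stood above their group for 1 erythroid transcript tended to do so for the others. After the group mean was taken from each value, HBB and HBG correlated over the 21 foetuses at Pearson r = 0.93 (permutation p = 0.00021, adjusted p = 0.00063 over 6 pairs) and Spearman rho = 0.88 (permutation p = 0.00056). HBB and ALAS2 gave r = 0.78 (permutation p = 0.00039, adjusted p = 0.00077) and rho = 0.87, and HBG and ALAS2 r = 0.82 (permutation p = 6.4e-05, adjusted p = 0.00039) and rho = 0.92. These permutations were taken over the 62208 arrangements within groups. Without the 2 foetuses farthest from their group means, both CH at 260 dpc, r was 0.85, 0.78 and 0.84 for these pairs. Within the 12 arrays of scan day 2 it was 0.96, 0.72 and 0.81.

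For MB no such relation was detected. Its r was -0.13 with HBB (rho = -0.11, permutation p = 0.62), -0.14 with HBG (rho = -0.13, permutation p = 0.56) and -0.01 with ALAS2 (rho = 0.05, permutation p = 0.94). Without the 2 farthest foetuses these were 0.02, -0.02 and -0.08. For the pair of MB and ALAS2 the foetuses left out were CH replicate 3 at 180 dpc and CH replicate 3 at 210 dpc. Within scan day 2 the r values of MB were -0.15, -0.14 and -0.01. Since group means were removed, the shared drop at 260 dpc does not enter these values.

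**Figure D3:**
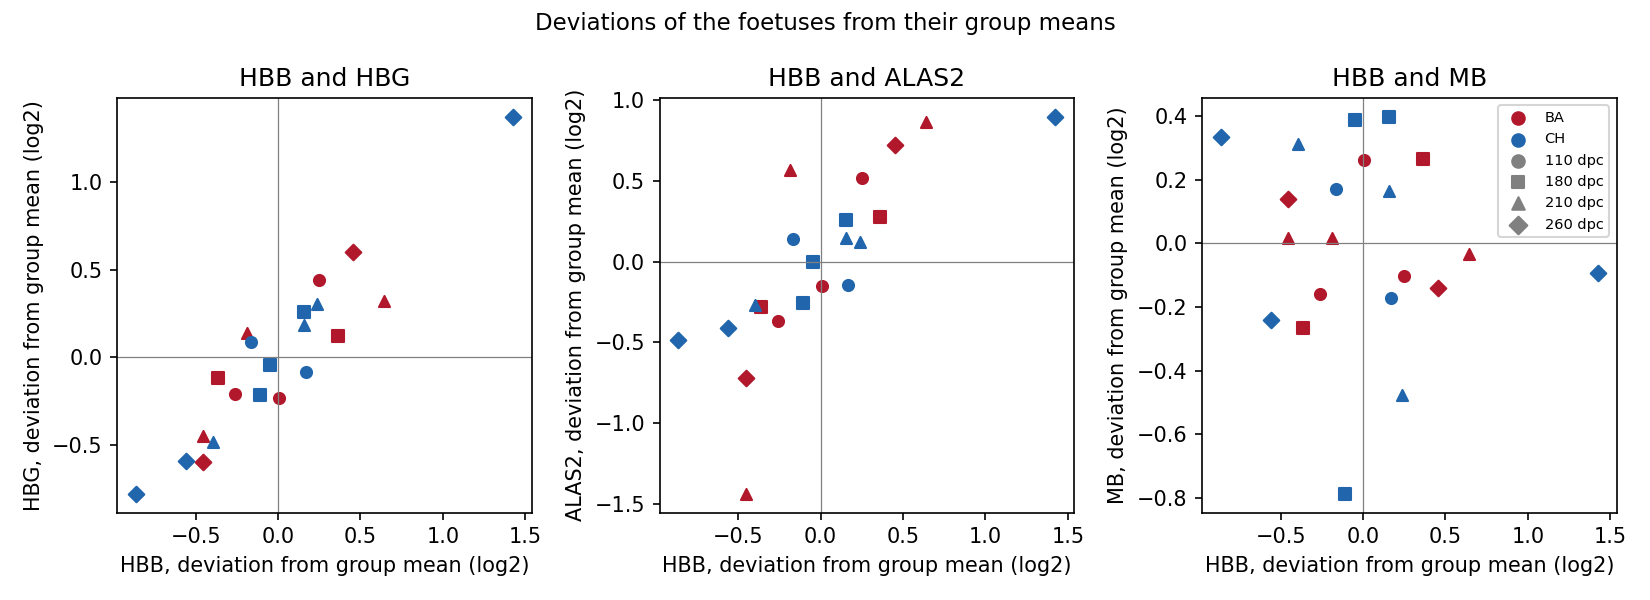
Deviation of each foetus from the mean of its breed and stage (log2), with HBB on the horizontal axis and HBG, ALAS2 or MB on the vertical axis, coloured by breed and shaped by stage. Points rise from left to right for HBG (r = 0.93) and ALAS2 (r = 0.78) and scatter without direction for MB (r = -0.13).

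Genes that define red cells were then read beside the globins. Of the erythroid-defining transcripts, GATA1 and KLF1, regulators of red cell formation, and CA1, the red cell carbonic anhydrase, were well above background on 0 of 21 arrays. SLC4A1, the anion exchanger of the red cell membrane, and RHAG were so on 1 array each, and EPB42 on 2. A change in these transcripts could not be measured. Other red cell genes, named after their values were seen, were well above background on all 21 arrays. AHSP passed in neither breed (above), nor in the fit over all probes did the regulators TAL1 (-0.01 in BA and 0.24 in CH), NFE2 (-0.16 and 0.38) and GFI1B (0.35 and -0.59). BPGM, which makes the phosphate that lowers the oxygen affinity of haemoglobin, was higher by 2.11 in BA and 1.94 in CH. It was not among the 3 red cell enzymes of the tested set that were called higher in both breeds. AQP1, a water channel of red cells and vessels, fell by 0.72 in BA (limma adjusted p = 0.023) and differed by -0.50 in CH (limma adjusted p = 0.11). MYB, a regulator of early blood cells detected on 12 arrays, differed by -1.13 in BA (limma adjusted p = 0.054) and by -1.61 in CH (limma adjusted p = 0.0083). These genes therefore did not all fall with HBB, HBG and ALAS2, but several were picked with their values known. TAL1, NFE2 and GFI1B were also under the filter on low values, and AQP1 is shared with vessels. The globins HBA and HBE4 did fall in both breeds, and HBM in BA. Whether a shared blood content lay behind the globin falls was not tested. In whole muscle, fewer cells of a type and less RNA per cell cannot be told apart.

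The lists on globins, haem and red cells held 36 tested genes besides the members. In both breeds 17 were higher and 4 lower at 260 dpc, against 23.2% higher and 21.1% lower of 7932 named genes at 1 probe each. Quantile normalization gave 14 higher and 6 lower, and the deposited unscaled values gave 3 higher and 4 lower. In that unscaled table the median change of all tested probes was -0.39 in BA and -0.34 in CH, so the smaller rises below are relative to the array as a whole.

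Of the haem synthesis genes other than ALAS2, more rose than fell. ALAS1, the form of the enzyme used outside red cells, rose by 1.00 in BA (SE 0.16, limma adjusted p = 5.7e-05) and by 0.86 in CH (SE 0.16, limma adjusted p = 0.00024). UROD, another enzyme of the pathway, rose by 0.75 in BA and 0.63 in CH, whereas PPOX, a late enzyme of the pathway, fell by 0.69 and 0.61. Of the 9 tested genes of the list 4 were higher and 1 lower in both breeds. Their median change averaged over the breeds was 0.37, beside 0.04 for all tested probes. The rises of ALAS1 and UROD were not called on the unscaled values.

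Among 10 tested genes of iron and haem handling 5 rose and 2 fell in both breeds. HMOX1, which degrades haem, fell by 1.32 in BA (SE 0.39, limma adjusted p = 0.0098) and by 2.07 in CH (SE 0.39, limma adjusted p = 0.00030). The ferritin chains moved apart, FTL falling by 0.93 in BA and 1.04 in CH and FTH1 rising by 1.05 and 0.93. HJV, a muscle-expressed regulator of iron balance, rose by 1.07 and 0.87. The FTH1 and HJV calls were lost after normexp correction and on the unscaled values, and that of HJV also after quantile normalization.

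In the red cell membrane list 4 genes could be tested. TMOD1, which caps actin filaments, rose by 1.57 in BA and 1.68 in CH, and GYPC, a membrane glycoprotein found in many cell types, by 1.55 and 1.32 (SE up to 0.18). Among 5 tested red cell enzymes CA2, a carbonic anhydrase, rose by 1.40 and 1.58, catalase (CAT) by 0.84 and 0.87 and FBXO7, a subunit of a ubiquitin ligase, by 0.53 and 0.70. Of the erythroid regulators 4 were tested, and GATA2 rose by 1.56 and 1.38, LMO2 by 0.97 and 0.76 and SOX6 by 0.82 and 0.66. Muscle, vessel and other cells also express these genes. The rises of CA2, CAT, FBXO7, LMO2 and SOX6 were not called in both breeds on the unscaled values.

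BCL11A, which represses foetal globin genes in adult red cells, was named after its values were seen. It was well above background on 5 of 5 arrays at 110 dpc, 4 of 5 at 180 dpc, 1 of 6 at 210 dpc and 0 of 5 at 260 dpc. Its level at 260 dpc was at least 3.03-fold lower in BA and at least 2.65-fold lower in CH, taking the dimmest detected probe of an array as its limit. The limma adjusted p over all probes was 0.00013 in BA, but it rests on readings at 260 dpc that were not well above background.

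Other blood cells and vessels did not move as 1 group. PF4, a platelet chemokine named after its values were seen, was well above background on all 16 arrays from 110 to 210 dpc and on 2 of 5 at 260 dpc. It ranged from -0.64 to 0.56 over the 5 foetuses at 110 dpc and from -3.61 to -1.29 at 260 dpc, and the 260 dpc values of PF4 and of HBB were both highest in the same CH foetus. Its part in the globin values was not tested. Of the 2 platelet genes bright enough to be in the tested set, limma called 0 in both breeds and 1 in CH alone. Of 8 tested leukocyte genes, CSF1R, a macrophage receptor, fell by 1.56 in BA and 1.28 in CH, and CD68 rose by 0.78 and 0.89, the latter call being absent on the unscaled values.

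The summed level of the 6 endothelial genes, read as a rough sign of vessels, adds intensities over 1 probe of each gene, so the brightest probes weigh most. On the log2 scale it lay between 5.61 and 5.91 at 110 dpc and 6.33 and 6.43 at 180 dpc. It lay between 5.99 and 6.51 at 210 dpc and 5.67 and 6.09 at 260 dpc. KDR fell by 0.54 in BA and 0.73 in CH and TEK rose by 0.58 and 0.51, both receptors of endothelial cells. The TEK call was absent on the unscaled values. The ranges at 110 and 260 dpc overlapped, but the level was higher at 180 dpc and lower again at 260 dpc. HBB and HBG were also lower at 260 than at 180 dpc, but their differences from 110 to 180 dpc (0.67 and 0.29) were not called. From 110 to 180 dpc 5 of the 6 genes were called higher and 0 lower, beside 12.5% higher and 11.4% lower of all probes tested. From 210 to 260 dpc 0 were called higher and 3 lower, beside 24.8% and 19.9% of all probes tested. The part of vessel content in the globin values was not tested.

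Genes of the muscle fibre were read beside MB. Of 21 tested genes of slow and oxidative fibres, 16 rose and 0 fell in both breeds. Of 7932 named genes at 1 probe each, 23.2% were higher and 21.1% lower in both breeds. The median change of the list was 1.54 in each breed, beside 0.03 for all probes tested. CKMT2, mitochondrial creatine kinase, rose by 6.10 in BA and 6.06 in CH (SE 0.26 in each). LPL, which releases fatty acids for uptake, rose by 4.05 and 3.90, COX7A1, the muscle form of a cytochrome oxidase subunit, by 3.07 and 3.35 and TNNT1, slow troponin T, by 2.79 and 2.75. The median of this list was below the MB rises of 3.32 and 2.64.

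General muscle genes also rose, 6 of 8 in both breeds, beside 23.2% of the named genes. CKM rose by 3.28 in BA and 2.94 in CH, fast troponin T (TNNT3) by 2.87 and 2.31, skeletal actin (ACTA1) by 2.78 and 2.37 and the calcium channel RYR1 by 2.33 and 2.23. The rises of these 4 genes and of the 4 slow and oxidative genes above were called under each of the 4 other scalings run.

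**Figure D4:**
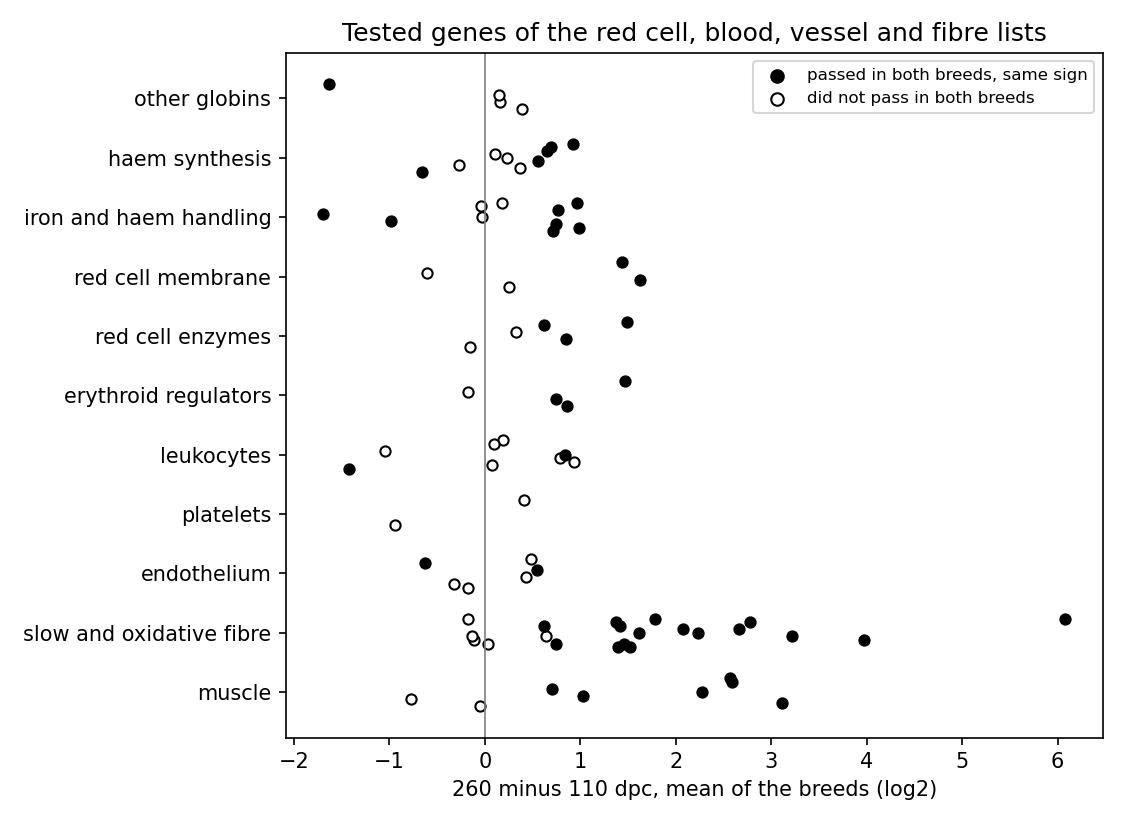
Change from 110 to 260 dpc averaged over the breeds (log2, horizontal axis) of each tested gene in 11 lists (vertical axis), filled where the gene passed in both breeds with the same sign. The slow and oxidative fibre and muscle lists lie mostly to the right of 0, up to 6.08 for CKMT2, while HMOX1 at -1.70 and HBA at -1.64 are farthest to the left.

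The breeds were compared to ask whether muscle of foetuses of BA, the more muscular breed, held more or less of these transcripts. Averaged over the 4 stages, BA minus CH was 0.12 for HBB (95% interval -0.39 to 0.63), -0.07 for HBG (-0.57 to 0.44), -0.14 for ALAS2 (-0.76 to 0.47) and 0.21 for MB (-0.11 to 0.53). None of the 4 passed in limma, none had an unadjusted p under 0.05, and exact permutation p-values lay between 0.368 and 0.8, while 0.358% of all probes tested were called.

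At single stages the intervals were wider. In 4 of the 16 combinations of gene and stage the breeds did not overlap. ALAS2 was higher in CH at 110 dpc, where 29.4% of probes tested did not overlap, and HBB, ALAS2 and MB were higher in BA at 180 dpc, where 25.5% did not. At 210 and 260 dpc no member was separated, beside 10.5% and 19% of probes. With 2 or 3 foetuses a group, non-overlap was thus common.

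MB at 180 dpc showed the widest gap of the 4 genes. Both BA foetuses, at 8.62 and 8.09, lay above the CH foetuses at 7.64, 7.63 and 6.46, a difference of 1.11 (SE 0.31, 95% interval 0.46 to 1.76, limma adjusted p = 0.52). The second MB probe differed by 1.22 (limma adjusted p = 0.73). Both BA foetuses of this stage were by 1 sire, so breed and sire cannot be told apart here. At this stage 0.00993% of all probes tested were called, beside 0.273% at 110 dpc and 0% at 210 and 260 dpc. The change of MB from 110 to 180 dpc was greater in BA than in CH by 1.50 (SE 0.44, limma adjusted p = 0.48). This did not pass either, and 0% of all probes tested were called. Without CH replicate 3 at 180 dpc, the male at 6.46, the stage difference was 0.72, which equals the value in female foetuses alone.

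From 110 to 260 dpc the change in BA minus the change in CH was 0.10 for HBB, 0.63 for HBG, 1.18 for ALAS2 and 0.68 for MB. None of these passed in limma (adjusted p from 0.78 to 0.99, with 0 of 4 under 0.05 unadjusted), and 0% of all probes tested were called. HBG minus HBB differed between the breeds by -0.19 (exact permutation p = 0.13, adjusted p = 0.29 over 6 differences). Leaving out the first BA foetus of 260 dpc moved it to -0.22 (exact permutation p = 0.049). Within scan day 2, the 1 day with both breeds at all 4 stages, BA minus CH was -0.02 for HBB, -0.15 for HBG, -0.30 for ALAS2 and 0.06 for MB.

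Sex was compared within groups, since males and females were spread unevenly. For MB the 8 males minus the 13 females gave -0.50 (SE 0.14, limma adjusted p = 0.37), which did not pass, while 0.0695% of all probes tested were called. The difference was 0.21 for HBB (limma adjusted p = 0.88), 0.25 for HBG (limma adjusted p = 0.85) and -0.24 for ALAS2 (limma adjusted p = 0.86).

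The genes whose pattern over the 21 arrays was most like that of each member were sought among 7890 genes at 1 probe each, by Pearson r, as a description. For HBB they were GCHFR (0.95), a regulator of GTP cyclohydrolase, HBA (0.94) and MCRIP1 (0.91). For HBG they were GCHFR (0.94), LXN (0.93), a carboxypeptidase inhibitor, and MYL4 (0.93), the embryonic myosin light chain. For ALAS2 they were HBA (0.96), GCHFR (0.88) and MYL4 (0.88), and for MB they were SSU72 (0.97), AAMDC (0.96) and KLHL24 (0.95). All arrays share the stages, so likeness over levels largely repeats the change with age.

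With the group means removed most of the nearest genes were others. For HBB they were GCHFR (0.81), TMEM255A (0.80) and PTRHD1 (0.78), for HBG DKKL1 (0.83), SARS1 (0.82) and ABCG2 (0.81), for ALAS2 DKKL1 (0.82), MYL4 (0.81) and RBM4 (0.80), and for MB ITIH4 (0.87), FAM229B (0.83) and SLX1A (0.83). GCHFR for HBB and MYL4 for ALAS2 were named by both measures. These r values are below that of HBB with HBG (0.93), which is itself measured on the same arrays.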

How the data were processed

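The deposited scanner files held 1-colour (Cy3) spot intensity values from Agilent Feature Extraction 10.7, which the authors detrended within each array without background subtraction. The table deposited with them by the authors held log2 values of the same intensities (99.98% within 0.01), not scaled between arrays. The array design names the bovine build Btau 3.1, and gene names came from ARS-UCD2.0 RefSeq accessions, so no coordinates are given. Control spots and 258 outlier spot values were left out, log2 intensities were set relative to the 75th percentile of each array (525 to 1174 in intensity) and a constant of 2.69 was added. Groups came from the labels. One fit of 8 group means in limma 3.58.1 (R 4.3.3) over 21 arrays gave all stage and breed contrasts, with 13 residual degrees of freedom. Sex entered as a further term for the sex contrast. In tests on simulated data 196 of 200 probes shifted by 2 were recovered for the BA contrast, with 8 false calls. The shifted probes were tested probes with a mean above 2, so the recovery does not cover ALAS2. No effect of slide, scan day, sex or sire was simulated. Array number limits the precision. Labels give separate foetuses.

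The members and gene lists were chosen with earlier results of these data known. For each gene the brightest tested probe was used. Named genes were all members and other globins, up to 4 genes per list with the largest change among those called in both breeds, and the 3 genes most alike. Alternatives covered scaling, background, filters, sex, slide, scan day, sire, replicate number, variance model, second probes and each foetus left out.

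Replicate numbers were checked for pairing. Deviations of same-numbered foetuses from their group means correlated at a median r of 0.03 over 66 pairs (lowest -0.26), beside 0.00 over 126 other pairs, so the numbers were taken as names.

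A few genes of the lists are not reported here by name.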

Additional observations from a re-analysis of the deposited data

Results flagged for a closer look

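MB moved in opposite directions between 180 and 210 dpc in the 2 breeds: both BA foetuses at 180 dpc lay above all 3 at 210 dpc, and all 3 CH foetuses at 180 dpc lay below all 3 at 210 dpc. The change in BA minus that in CH was -1.29 (SE 0.41, 95% interval -2.17 to -0.42, limma adjusted p = 0.93). In BA the gap was narrow, with the lowest foetus at 180 dpc at 8.09 and the highest at 210 dpc at 8.08. The second MB probe gave -1.45 (limma adjusted p = 0.999), but on it the BA stages overlapped, since a foetus at 210 dpc (5.5) lay above both at 180 dpc (5.35 and 5.17). It did not pass the correction, and 0% of all probes tested were called for this difference. The CH foetuses at 180 dpc were 2 females and 1 male, while both BA foetuses were female by 1 sire.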

How the results depend on the processing

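From 110 to 260 dpc, the drops of HBB in CH, of HBG in both breeds and of ALAS2 in CH, and the rise of MB in both breeds, kept their direction and call under every setting run, each foetus left out included. HBB in BA was lost with slide as a block (-1.83), and ALAS2 in BA with slide (-1.70) or scan day (-1.49) as a block and in female foetuses alone (-1.63). With 1 foetus left out at a time, ALAS2 in BA ranged from -2.50 to -1.06, HBG in BA minus CH from -0.22 to 0.11, ALAS2 in BA minus CH from -0.32 to 0.037 and HBG minus HBB in BA minus CH from -0.25 to -0.12. In female foetuses alone BA minus CH was 0.22 for HBG and 0.16 for ALAS2. Normexp correction gave -0.76 for the stage change of HBG minus HBB.

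Differences that did not pass as reported changed sign as follows. At 110 dpc BA minus CH for HBB was 0.035 on the deposited unscaled values and 0.039 with the replicate block. At 210 dpc in female foetuses alone it was 0.38 for HBB, 0.27 for HBG and 0.18 for ALAS2. At 260 dpc it was -0.026 for HBB after normexp and -0.052 with the replicate block, while the value of MB, BA minus CH at 260 dpc was -0.043 with sex as a covariate and -0.041 in female foetuses alone. The stage-by-breed difference of HBB was -0.091 with the replicate block, and r of MB with ALAS2 was 0.011 after quantile normalization.

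With replicate number as a block no call on a 260 minus 110 dpc change or a breed mean changed, for example HBB in BA at -2.50, so pairing altered no call. Leave-one-out reversals were those of HBB at 110 dpc (-0.22 to 0.11) and 260 dpc (-0.41 to 0.75), of its stage-by-breed difference (-0.36 to 0.81), of HBG (-0.29 to 1.00) and ALAS2 (-0.36 to 1.08) at 260 dpc, and of the sex difference of HBB (-0.066 to 0.43) and ALAS2 (-0.48 to 0.24).

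On the unscaled values 3 genes of the globin, haem and red cell lists were higher, and 0 leukocyte and platelet genes higher and 3 lower. Without the filter 2 of the latter were higher and 2 lower. Of the called probes of the tested set 52.7% were higher at 260 dpc in BA. The share was 64.6% after median scaling, which moved the median of all probes tested to 0.16, and 24.7% on the unscaled values. Groups of 2 or 3 foetuses limit every breed comparison.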
